A study of Mus musculus with 2 samples.

Results

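Interferon-stimulated genes and the schlafens (the Slfn family) were compared between liver RNA pools of S1a/Ctrl and S1a/ETP mice. They are 45 genes, taken by symbol from a list, and all 45 were found among the 35275 genes of the table. The list holds 29 type I interferon response genes, 9 GTPases induced by interferon-gamma and 7 Slfn genes. S1a/Ctrl mice carried Alb-Cre, the Rosa26-LSL-rtTA allele and a PEPCK-driven transgene for a truncated, active human SREBP1a, which gives a fatty liver. S1a/ETP mice carried the same alleles and in addition TRE-ETP, which encodes endotrophin, the C-terminal peptide cleaved from collagen VI alpha 3. Because Cre was driven by the albumin promoter, endotrophin was inducible in hepatocytes only, whereas both groups were fed doxycycline at 200 mg/kg for 10 months from 6 weeks of age. Mice were FVB males with littermate controls, 12 months old by the sample labels, and the alleles were heterozygous. The RNA of each group was a single pool of 3 mice sequenced as 1 library, so the difference between mice of a group was not measured and no p-value was computed.

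Type I and type III interferons are secreted by cells that sense viral or self nucleic acids. They act through Jak kinases on a complex that holds Stat2 and Irf9 and binds the interferon-stimulated response element (ISRE). Interferon-gamma instead acts on the gamma-activated site (GAS). The products include RNA-binding and membrane effectors, RNA sensors and GTPases that attack the vacuoles of intracellular microbes. The Slfn genes encode proteins found in immune cells and fibroblasts of the mouse, where several are induced by interferon and restrain proliferation. The liver meets microbial products from the gut, and its Kupffer cells and hepatocytes both respond to interferon.

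Expression was deposited as FPKM, reads per kilobase of gene and per unit of sequencing depth. The ratio of S1a/ETP over S1a/Ctrl is given on a log2 scale after 0.1 FPKM was added to both values, for genes whose mean over both pools reached 0.1 FPKM, and the interval in brackets is the 95% exact binomial (Clopper-Pearson) interval from the reads of the gene, which covers counting error only. The S1a/Ctrl library held 19245078 reads and the S1a/ETP library 14538808. The median log2 ratio of the 16042 genes above the filter was 0.03. *Col6a3*, the gene that contains endotrophin, was at 1.80 FPKM in the S1a/Ctrl pool and 2.45 in the S1a/ETP pool, and *Srebf1* at 146 and 164. Whether reads of the transgenes were counted in these rows was not tested, so they do not check the labels. Hepatocyte markers were abundant in both pools, with *Alb* at 31534 and 31035 FPKM. Of the 8 markers, 6 were lower in S1a/ETP, and the median log2 ratio was -0.33. The libraries also differed in markers of other cells. Of 8 neutrophil markers, 7 passed the filter, all 7 higher in S1a/ETP. Of these, 3 (*Mpo*, *Elane* and *Ngp*) passed through S1a/ETP alone. The 8 summed to 5.65 FPKM in the S1a/Ctrl pool and 314 in the S1a/ETP pool. *Mpo*, *Elane*, *Ngp* and *Cxcr2* were at 0 reads in S1a/Ctrl. Skeletal muscle markers summed to 75.6 FPKM in the S1a/Ctrl pool and 0.449 in the S1a/ETP pool, with 5 of 6 at 0 in S1a/ETP. In bulk liver, fewer cells of a type and less RNA per cell cannot be told apart.

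Of the 45 genes, 44 passed the filter, and their median log2 ratio was 0.05. At least 2-fold higher in S1a/ETP were 2 of 44, *Slfn9* and *Slfn4*, against 6.42% of all genes, and none was 2-fold lower, against 6.25%. *Slfn4* and *Oas3* were under 0.1 FPKM in S1a/Ctrl and passed the filter only through S1a/ETP, so the filter itself favors a higher ratio for them. At a size of 1.5-fold, 4 were higher (*Slfn9*, *Slfn4*, *Slfn1* and *Oas3*; background 13.2%) and 1 was lower (*Gbp2*; background 11.3%). The counting interval lay above 0 for 9 genes and below 0 for 5, where 22.4% and 17.5% of all genes did so. For 38 of the 44 genes (86.4%) the whole interval lay within 2-fold of no difference. It did so for 67.5% of all genes, and for 88.4% of those with a mean of at least 1 FPKM. Counting only mean levels from 1 FPKM up, 1 of these genes was 2-fold higher (*Slfn9*; background 2.19%) and none was lower (background 1.84%). *Slfn9* cleared this stricter filter only because of its S1a/ETP level, so the filter favors a higher ratio for this gene too. The ratio was above 0 for 27 and below 0 for 17, with 53.2% of all genes above 0. The 3 highest ratios were those of Slfn genes. With a pseudocount of 1 FPKM, *Slfn9* was at 0.998 and *Slfn4* at 0.26, so none passed 2-fold.

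**Figure D1:**
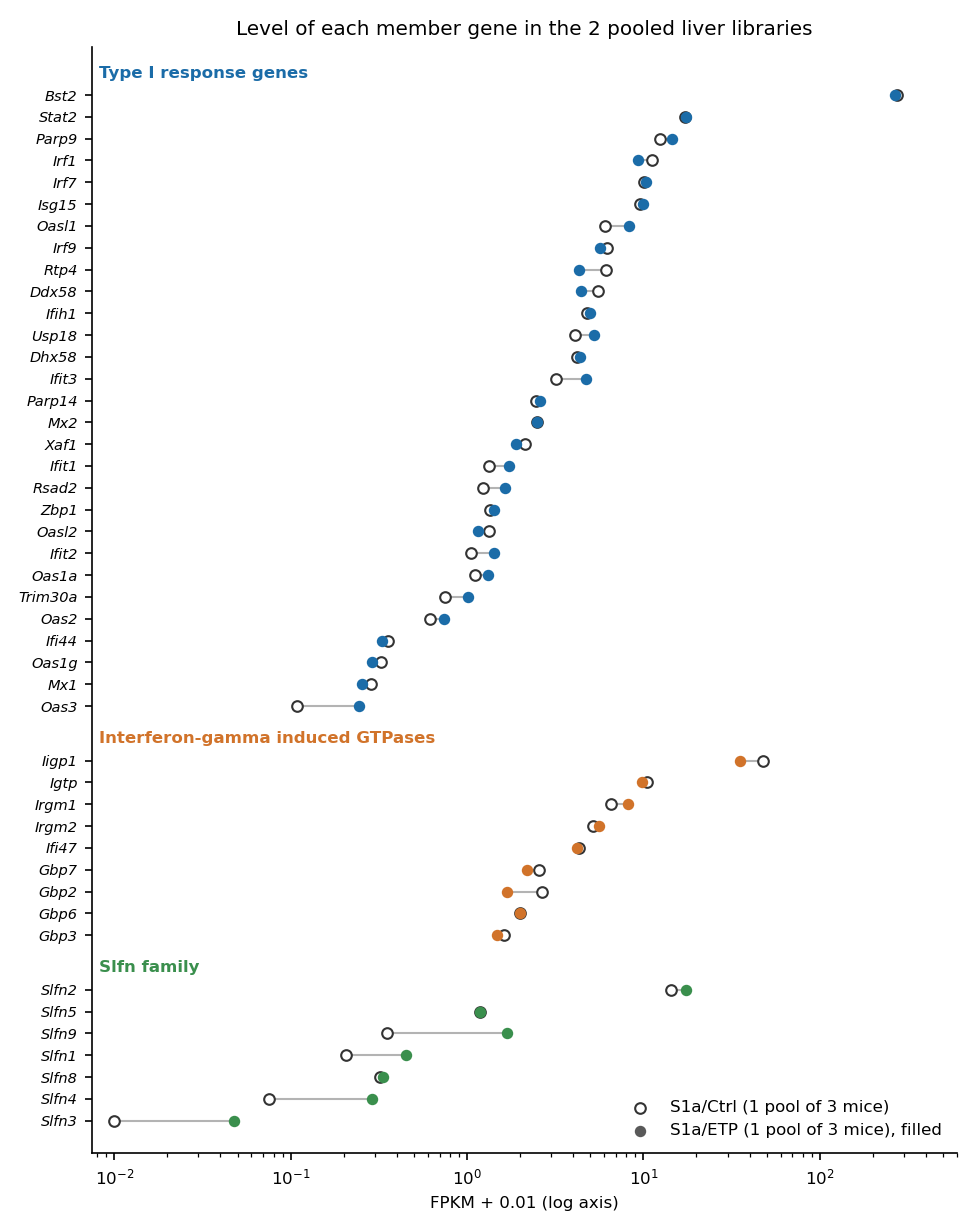
FPKM of the 45 genes (log axis, with 0.01 added) in the S1a/Ctrl pool (open circles) and the S1a/ETP pool (filled circles), 1 library of 3 mice each, by group and ordered by mean level. Most pairs of circles touch, Bst2 stands highest at 274 and 269 FPKM, and the widest gaps are those of Slfn9, Slfn4, Slfn3, Slfn1 and Oas3.

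**Figure D2:**
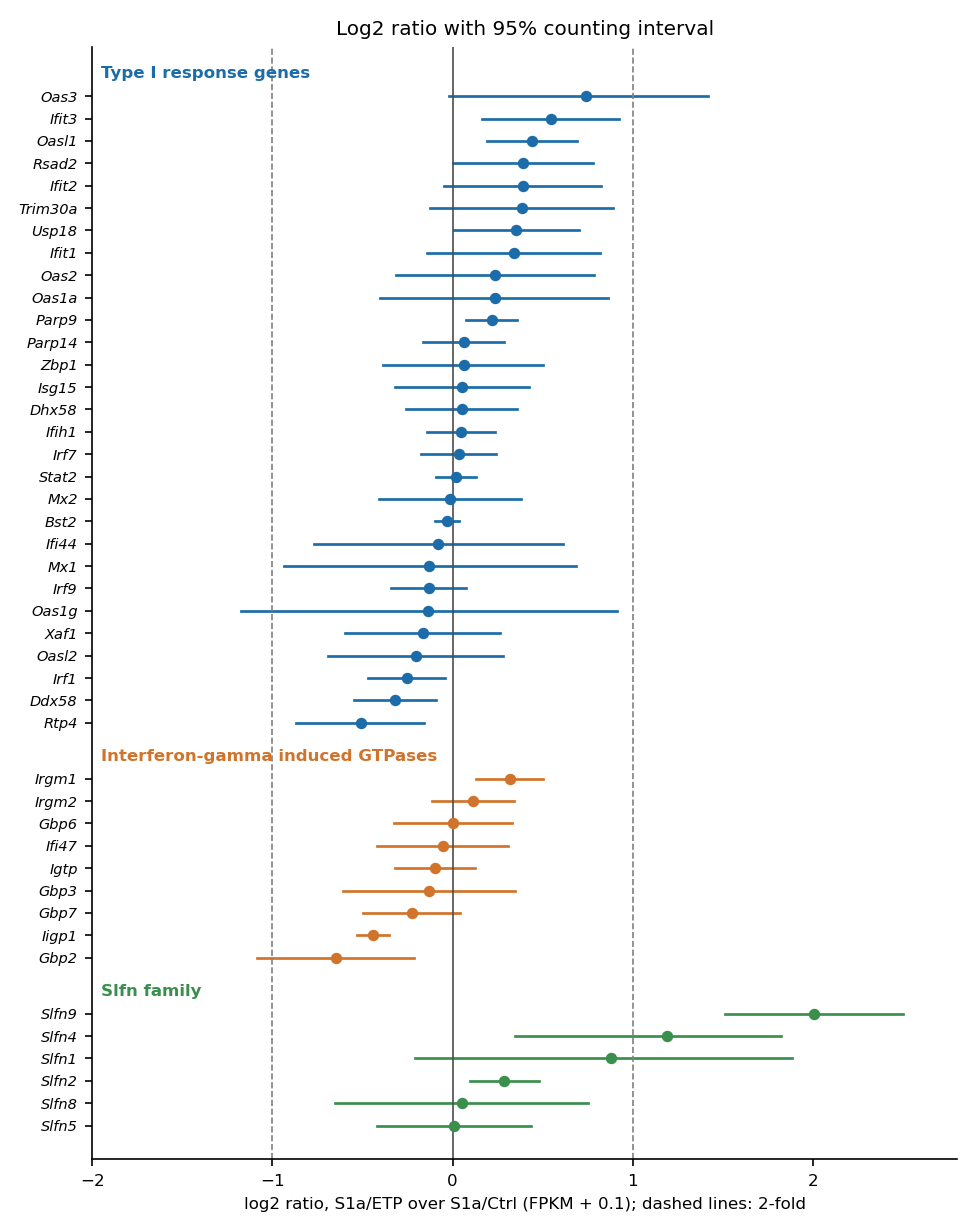
Log2 ratio of S1a/ETP over S1a/Ctrl for the 44 genes above the filter (points) with the 95% counting interval (lines), dashed at 2-fold. Slfn9 at 2.01 and Slfn4 at 1.19 lie past the 2-fold line, and 30 of the 44 intervals span 0.

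The sequence upstream of each gene start was then searched for the ISRE and GAS. RefSeq promoters of build GRCm38.p6 were matched by symbol for 34 of the 45 genes, 20 of 29 type I response genes, 7 of 9 GTPases and 7 of 7 Slfn genes. In the 250 bases before each start, the ISRE core GAAANNGAAA and the GAS letters TTCNNNGAA were searched on both strands. The ISRE core stood before 19 of the 34 genes (55.9%), against 3.46% of 27025 genes in the promoter table, and GAS letters before 7 (20.6%), against 8.13%. Because most genes were listed as interferon-stimulated, such an excess could be foreseen from the list and is no result of these libraries. By group, the ISRE core was found before 10 of 20 type I response genes, 6 of 7 GTPases and 3 of 7 Slfn genes, and GAS letters before 4 of 20, 3 of 7 and 0 of 7. The 6 windows printed here are those of the 2 Slfn genes past 2-fold, of *Slfn8*, the neighbor of *Slfn9*, and of *Ifit3*, *Isg15* and *Igtp*, which had matches. They are written 5′ to 3′ and end at the base before the RefSeq start, with matched letters in capitals.
Slfn9, chr11:82991831-82992080, minus strand: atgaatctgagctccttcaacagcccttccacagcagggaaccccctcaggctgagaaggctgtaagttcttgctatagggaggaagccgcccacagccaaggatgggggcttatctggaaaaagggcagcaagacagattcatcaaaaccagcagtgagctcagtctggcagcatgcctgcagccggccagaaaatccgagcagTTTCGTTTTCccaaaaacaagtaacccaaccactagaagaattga
Slfn8, chr11:83020811-83021060, minus strand: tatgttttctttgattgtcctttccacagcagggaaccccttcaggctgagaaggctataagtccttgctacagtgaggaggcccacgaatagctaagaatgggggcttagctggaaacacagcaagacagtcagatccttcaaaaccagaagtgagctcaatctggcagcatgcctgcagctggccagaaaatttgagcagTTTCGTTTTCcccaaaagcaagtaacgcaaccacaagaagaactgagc
Slfn4, chr11:83174936-83175185, plus strand: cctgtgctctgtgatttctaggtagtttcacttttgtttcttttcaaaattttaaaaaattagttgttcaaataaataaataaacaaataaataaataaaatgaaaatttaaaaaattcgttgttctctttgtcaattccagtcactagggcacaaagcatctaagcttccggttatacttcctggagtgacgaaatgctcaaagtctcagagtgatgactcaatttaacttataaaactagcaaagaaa
Ifit3, chr19:34583279-34583528, plus strand: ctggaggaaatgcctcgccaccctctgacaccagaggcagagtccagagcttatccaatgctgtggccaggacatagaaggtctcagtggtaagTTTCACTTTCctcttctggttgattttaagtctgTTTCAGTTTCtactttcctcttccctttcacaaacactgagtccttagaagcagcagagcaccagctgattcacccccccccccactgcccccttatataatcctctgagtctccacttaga
Isg15, chr4:156200819-156201068, minus strand: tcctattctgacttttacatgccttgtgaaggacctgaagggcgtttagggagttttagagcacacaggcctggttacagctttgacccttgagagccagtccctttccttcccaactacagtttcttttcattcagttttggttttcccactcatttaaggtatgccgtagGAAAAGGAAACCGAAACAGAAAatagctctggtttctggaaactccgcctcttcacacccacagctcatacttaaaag
Igtp, chr11:58199306-58199555, plus strand: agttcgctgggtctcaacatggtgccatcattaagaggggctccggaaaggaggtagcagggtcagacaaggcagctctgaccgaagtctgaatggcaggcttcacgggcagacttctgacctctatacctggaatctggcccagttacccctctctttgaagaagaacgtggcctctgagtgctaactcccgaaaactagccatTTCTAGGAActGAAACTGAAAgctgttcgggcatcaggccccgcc

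*Slfn9* and *Slfn8* shared the same match, TTTCGTTTTC, at 45 to 36 and 48 to 39 bases before their starts, and their windows were identical at 210 of 262 aligned columns (80.2%). Other pairs of Slfn windows were identical at 45.5% to 53.4% of columns. *Slfn5* held GAAAAAGAAA at 155 to 146 bases before its start, and no match was found before *Slfn1*, *Slfn2*, *Slfn3* or *Slfn4*. *Isg15* held 3 overlapping ISRE cores between 78 and 57 bases before its start, *Ifit3* held 2, and *Igtp* held a GAS match at 45 to 37 followed by an ISRE core at 34 to 25. In the *Bst2* window a GAS match overlapped an ISRE core. A match is a description of these letters and not of a bound site. Among genes above the expression filter, the median log2 ratio was 0.05 for the 19 with an ISRE core and -0.01 for the 14 without one.

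Among type I response genes, 0 of 29 were at least 2-fold higher or lower (background 6.42% and 6.25%), and the median ratio was 0.05 beside 0.03 for all genes, with a range of -0.51 to 0.74. Ratios were above 0 for 18 and below 0 for 11 (53.2% of all genes above 0). The counting interval lay above 0 for 5 genes (background 22.4%), *Ifit3*, *Oasl1*, *Rsad2*, *Parp9* and *Usp18*, and below 0 for 3 (background 17.5%), *Rtp4*, *Ddx58* and *Irf1*. The lower bounds of *Rsad2* and *Usp18* were under the median of all genes, 0.03. The 29 genes summed to 392 FPKM in the S1a/Ctrl pool and 390 in the S1a/ETP pool. *Bst2* made up most of this, and without it the sums were 117 and 122.

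*Bst2*, or tetherin, which holds budding virions on the cell surface, had the highest level of all 45 genes at 274 FPKM in the S1a/Ctrl pool and 269 in the S1a/ETP pool. With 4036 and 2984 reads, its ratio was -0.03 [-0.10, 0.04]. *Isg15*, a ubiquitin-like protein that is joined to target proteins, was at 9.55 and 9.92 FPKM from 139 and 109 reads, with a ratio of 0.05 [-0.32, 0.42]. *Usp18*, the protease that removes *Isg15* and blocks the type I receptor, was at 4.08 and 5.25 FPKM from 139 and 135 reads, at 0.35 [0.01, 0.70]. The level of the modifier was thus close in both pools, and that of its protease was higher in S1a/ETP by little more than counting error.

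The Ifit proteins bind viral RNA ends and hinder translation. *Ifit1* was at 1.33 FPKM in the S1a/Ctrl pool and 1.71 in the S1a/ETP pool, *Ifit2* at 1.05 and 1.41, and *Ifit3*, with its ISRE cores, at 3.19 and 4.69. All 3 were higher in S1a/ETP, with ratios of 0.34 [-0.14, 0.82], 0.39 [-0.05, 0.83] and 0.54 [0.16, 0.92], and the interval of 1, *Ifit3*, lay above 0. *Ifit3* shares 31.7% of its 100-base stretches with *Ifit3b*, so reads could be split between these copies, and *Ifit3b* itself was at 0.727 and 0.722 FPKM.

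Oas enzymes sense double-stranded RNA and make oligoadenylates that activate RNase L. *Oasl1*, a relative that in the mouse represses translation of *Irf7*, had the highest level of the 6, at 6.08 FPKM in the S1a/Ctrl pool and 8.29 in the S1a/ETP pool from 255 and 263 reads, with a ratio of 0.44 [0.19, 0.69]. *Oasl2* was at 1.33 and 1.15 FPKM, at -0.20 [-0.69, 0.28]. *Oas2* was at 0.603 and 0.729 FPKM, at 0.24 [-0.32, 0.79]. Neither interval left 0. *Oas3*, the enzyme with the most repeated domains, had the largest type I ratio, 0.74 [-0.02, 1.42], from 9 and 16 reads at 0.0991 and 0.233 FPKM, so its interval spanned 0. *Oas1a* was at 1.10 and 1.31 FPKM and *Oas1g* at 0.315 and 0.278, and since they share 40.9% and 31.3% of their 100-base stretches, they were also summed, a sum chosen after seeing the data. The 52 and 44 reads of both gave a log2 ratio of 0.16 [-0.45, 0.77] when scaled to depth with no pseudocount.

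Among the other effectors, most intervals spanned 0. *Mx1* and *Mx2* belong to a family of dynamin-like GTPases that trap viral nucleocapsids. They were at 0.276 and 0.244 FPKM and at 2.50 and 2.47 FPKM, with ratios of -0.13 [-0.94, 0.69] and -0.01 [-0.41, 0.38]. The deposited annotation types *Mx2* as a polymorphic pseudogene, so its reads do not imply a working protein. *Rsad2*, or viperin, which makes a chain-terminating nucleotide, was at 1.22 and 1.63 FPKM from 98 and 99 reads, at 0.39 with an interval of 0.0014 to 0.78. *Parp9*, a macrodomain protein of the ADP-ribosyltransferase family, was at 12.4 and 14.5 FPKM from 850 and 747 reads, at 0.22 [0.07, 0.36]. Its gene overlaps the antisense gene *Gm15564*, which had 170 and 53 reads, and the strand setting of the counts is not given in the sources used here. *Parp14*, a larger relative, was at 2.47 and 2.58 FPKM, at 0.06 [-0.16, 0.28].

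*Rtp4*, a Golgi chaperone of cell surface receptors, was lower in S1a/ETP, at 6.14 FPKM in the S1a/Ctrl pool and 4.29 in the S1a/ETP pool from 186 and 98 reads, and its ratio of -0.51 [-0.87, -0.16] was the smallest of the type I response genes. *Trim30a*, a ubiquitin ligase that in the mouse limits NF-kB signaling, was at 0.744 and 1.003 FPKM, at 0.39 [-0.12, 0.89]. *Xaf1*, a proapoptotic partner of XIAP, was at 2.12 and 1.88 FPKM, at -0.17 [-0.60, 0.26], and *Ifi44* was at 0.345 and 0.322 FPKM, at -0.08 [-0.77, 0.61]. The last 3 intervals spanned 0, and the median over all 21 effectors was 0.22.

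The sensors had a median of 0.05. *Ifih1*, which binds long double-stranded RNA, was at 4.81 and 4.97 FPKM, at 0.05 [-0.14, 0.24]. *Dhx58*, the relative that helps it, was at 4.18 and 4.33 FPKM, at 0.05 [-0.26, 0.36]. *Ddx58*, or RIG-I, which binds RNA with a triphosphate end, was lower in S1a/ETP, at 5.51 and 4.40 FPKM from 411 and 248 reads and a ratio of -0.32 [-0.55, -0.09]. It was the only sensor of the 4 whose interval left 0. *Zbp1*, which binds left-handed nucleic acids and can start necroptosis, was at 1.34 and 1.41 FPKM, at 0.06 [-0.39, 0.50].

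The transcription factors of the response had a median of -0.06. *Stat2*, which binds *Irf9*, was the most abundant at 17.2 FPKM in the S1a/Ctrl pool and 17.4 in the S1a/ETP pool from 1453 and 1113 reads, and its ratio was 0.02 [-0.09, 0.13]. *Irf9* was at 6.20 and 5.65 FPKM, at -0.13 [-0.34, 0.07]. *Irf7*, the factor that amplifies interferon alpha production and is itself induced, was at 10.1 and 10.3 FPKM, at 0.03 [-0.17, 0.24]. *Irf1*, which interferon-gamma induces through a GAS, was at 11.2 and 9.33 FPKM from 459 and 290 reads, at -0.26 [-0.47, -0.04], the lowest of the 4. The 3 intervals of *Stat2*, *Irf9* and *Irf7* all lay within 1.5-fold of no difference.

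Among the GTPases, 0 of 9 were at least 2-fold higher or lower (background 6.42% and 6.25%), and the median was -0.10, with ratios above 0 for 3 and below 0 for 6 (53.2% of all genes above 0). They summed to 83.2 FPKM in the S1a/Ctrl pool and 70.2 in the S1a/ETP pool, and without *Iigp1* the sums were 35.4 and 35.1. *Iigp1*, an effector that loads onto and breaks the vacuoles of intracellular parasites, was at 47.8 FPKM from 2873 reads in the S1a/Ctrl pool and 35.2 from 1596 in the S1a/ETP pool, with a ratio of -0.44 [-0.53, -0.35], or 0.735 of the S1a/Ctrl level. It was the best counted of the genes whose interval left 0. *Ifi47*, another effector of that family, was at 4.33 and 4.17 FPKM, at -0.05 [-0.42, 0.31].

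*Irgm1*, *Irgm2* and *Igtp* are regulators that keep the effectors off the membranes of the host. *Irgm1* was higher in S1a/ETP, at 6.58 and 8.22 FPKM from 485 and 458 reads, with a ratio of 0.32 [0.13, 0.50], opposite in sign to *Iigp1*. *Irgm2* was at 5.15 and 5.59 FPKM, at 0.12 [-0.11, 0.34], and *Igtp* at 10.5 and 9.80 FPKM, at -0.10 [-0.32, 0.12]. *Irgm2* and *Igtp* overlap by 7974 bases on the same strand, so reads there are uncertain. Their summed reads, 752 and 570, gave 0.00 [-0.15, 0.16] when scaled to depth with no pseudocount, a sum chosen after seeing the data.

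The guanylate-binding proteins, which coat such vacuoles and bacteria, had a median of -0.18. *Gbp2* was at 2.66 FPKM in the S1a/Ctrl pool and 1.67 in the S1a/ETP pool from 129 and 61 reads, the lowest ratio of all 44 genes at -0.65 [-1.08, -0.22]. *Gbp7* was at 2.56 and 2.17 FPKM, at -0.23 [-0.50, 0.04], and *Gbp3* at 1.61 and 1.46 FPKM, at -0.13 [-0.61, 0.34]. Both overlap a row named *Gbp5* on the same strand, which was at 0.912 and 1.46 FPKM. The reference annotation gives the ID of that row the symbol *Gbp2b*, so its level may not be that of *Gbp5*. The row of *Gbp6* was at 1.99 FPKM in both pools, at 0.00 [-0.33, 0.33], but it spans *Gbp6* and *Gbp10* of the reference annotation, where 98.8% of its 100-base stretches recur in another gene, so the level belongs to these copies together.

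**Figure D3:**
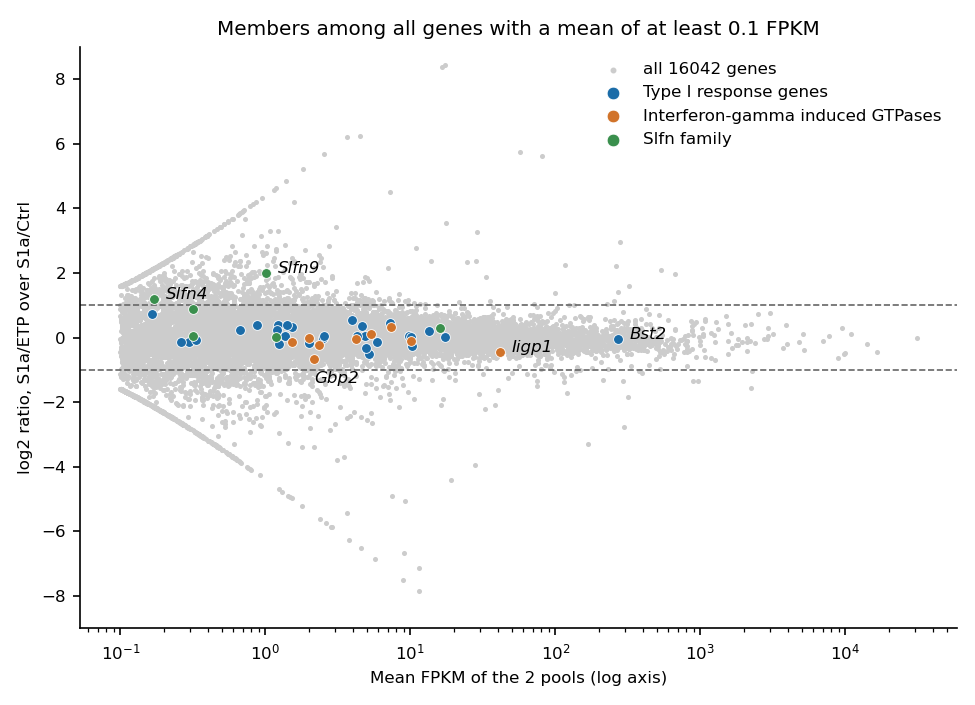
Log2 ratio of S1a/ETP over S1a/Ctrl against mean FPKM (log axis) for all 16042 genes above the filter (grey) and the 44 genes by group (colors), with dashed lines at 2-fold. The type I response genes and GTPases lie in the middle of the cloud at their level, and Slfn9 lies at its upper side.

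The Slfn genes had the widest range of ratios of the 3 groups. All 6 that passed the filter had ratios above 0, although *Slfn5* went below 0 when the median of all genes was set to 0. The ratios ran from 0.01 to 2.01 with a median of 0.58, and 2 of 6 were at least 2-fold higher (background 6.42%), with none lower and with 0 of 6 at a pseudocount of 1 FPKM. *Slfn4* passed the filter only through its level in S1a/ETP, so these counts and the median are a description and support no direction for the family. The 7 genes lie on chromosome 11 between 82951349 and 83215154, a span of 264 kb of build mm10, and their summed level was 16.4 FPKM in the S1a/Ctrl pool and 21.5 in the S1a/ETP pool. Of the 6 above the filter, 3 had under 100 reads over both pools. *Slfn9* is named by the study among the genes it called on these same libraries, so its ratio is not independent evidence. Without it the median was 0.29 and 1 of 5, again *Slfn4*, was 2-fold higher, a setting chosen after seeing the data.

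*Slfn9* is one of the long schlafens, which carry a helicase-like domain. It was at 0.344 FPKM from 30 reads in the S1a/Ctrl pool and 1.69 FPKM from 111 reads in the S1a/ETP pool. Although the S1a/ETP library was the smaller one, it held more *Slfn9* reads. The ratio was 2.01 [1.51, 2.50], and the ratio of the FPKM themselves was 4.90-fold [3.25, 7.60]. *Slfn8*, the neighboring long gene whose upstream window is the most similar, was at 0.311 and 0.326 FPKM from 24 and 19 reads, at 0.05 [-0.65, 0.75]. The intervals of both neighbors did not overlap. Of their 100-base stretches, 3.71% of those of *Slfn9* and 3.38% of those of *Slfn8* recur elsewhere, most often in *Slfn10-ps*, which had 0 reads in both pools. Summed over *Slfn8* and *Slfn9*, a sum chosen after seeing the data, the reads were 54 and 130. Scaled to depth with no pseudocount, they gave a log2 ratio of 1.67 [1.20, 2.16]. On that scale *Slfn9* alone was at 2.29 and *Slfn8* alone at 0.07. *Slfn5*, the third long gene, was at 1.17 and 1.18 FPKM from 92 and 70 reads, at 0.01 [-0.42, 0.44].

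*Slfn4*, an intermediate schlafen known from mouse macrophages and myeloid suppressor cells, had 5 reads in the S1a/Ctrl pool and 16 in the S1a/ETP pool, or 0.0656 and 0.278 FPKM. Its ratio was 1.19 [0.35, 1.83], and the ratio of the FPKM was 4.24-fold [1.48, 14.8], from 5 and 16 reads. *Slfn3*, the other intermediate gene, had 0 reads in the S1a/Ctrl pool and 1 in the S1a/ETP pool, which is under the floor of 3 reads in both, so no ratio is given. It was the only 1 of the 45 genes that did not pass the filter.

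The short schlafens lack the helicase-like domain, and in the mouse *Slfn2* keeps T cells and monocytes quiescent. *Slfn2* was the most abundant of the family, at 14.3 FPKM from 459 reads in the S1a/Ctrl pool and 17.5 FPKM from 424 reads in the S1a/ETP pool, with a ratio of 0.29 [0.10, 0.48]. It took 74.4% of the reads of the family in the S1a/Ctrl pool and 64.9% in the S1a/ETP pool. *Slfn1* was at 0.195 and 0.443 FPKM from 7 and 12 reads, and its ratio of 0.88 [-0.21, 1.88] spanned 0. In order along the chromosome the ratios were 0.01 for *Slfn5*, 2.01 for *Slfn9*, 0.05 for *Slfn8*, 0.29 for *Slfn2*, 0.88 for *Slfn1* and 1.19 for *Slfn4*. The interval of *Slfn9* overlapped those of *Slfn1* and *Slfn4*, but not those of *Slfn5*, *Slfn8* and *Slfn2*. Those of *Slfn8* and *Slfn2*, *Slfn2* and *Slfn1*, and *Slfn1* and *Slfn4* overlapped.

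**Figure D4:**
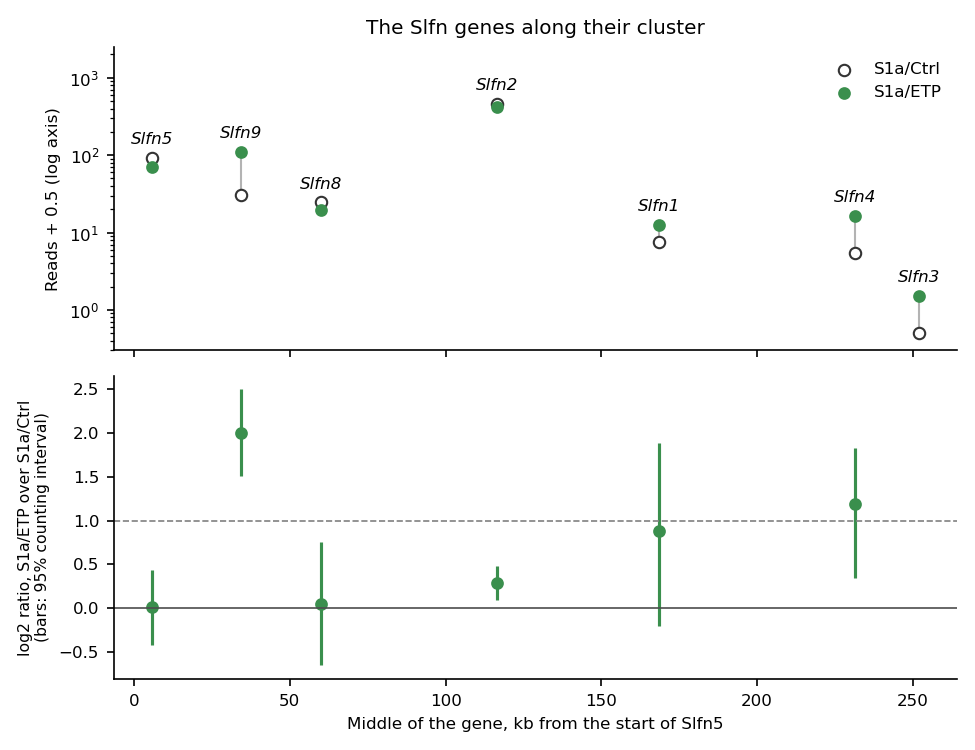
The 7 Slfn genes by position along their cluster (kb from the start of Slfn5). The upper panel shows reads plus 0.5 (log axis) in S1a/Ctrl (open) and S1a/ETP (filled), and the lower panel the log2 ratio with its 95% counting interval for the 6 genes above the filter, dashed at 2-fold. Slfn9 went from 30 to 111 reads, while Slfn5 and Slfn8 on either side lie near 0.

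Markers of cell types were then compared between the pools, where 53.2% of all genes had a ratio above 0. Beside the neutrophil markers, 5 of 6 monocyte markers were above 0, and the 6 summed to 3.40 FPKM in the S1a/Ctrl pool and 8.52 in the S1a/ETP pool, the median ratio being 1.06. All 10 Kupffer cell and macrophage markers were above 0, summing to 189 and 247 FPKM with a median of 0.41. Myeloid sums were therefore higher in S1a/ETP, while lymphocyte markers differed in both directions. T cell markers summed to 2.84 and 2.22 FPKM, with *Cd4* at 26 and 0 reads and 5 of 8 ratios above 0. NK cell markers summed to 0.956 and 1.81 FPKM, carried by *Nkg7* at 0.0592 and 1.33, while *Klrd1*, *Gzma* and *Ncr1* were lower in S1a/ETP. B and plasma cell markers summed to 4.50 and 8.49 FPKM, carried by *Jchain* at 3.36 and 7.55, while *Cd79a* and *Cd79b* were lower. Endothelial markers were at 32.9 and 33.3 FPKM, and hepatocyte markers at 64117 and 55447. For hepatocytes, 6 of 8 ratios were below 0, with a median of -0.33. Plasmacytoid dendritic cell markers summed to 158 and 349 FPKM, of which *Ly6d* alone was 157 and 349. *Siglech* had 6 and 8 reads and *Pacsin1* 2 and 8, while *Ccr9* and *Klk1* each had 5 and 0. The sum therefore follows *Ly6d* and gives no level for these cells. The part of these cells in the Slfn and interferon-stimulated gene levels was not tested.

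The rest of the pathway was counted in the same way, against the same 2-fold backgrounds of 6.42% higher and 6.25% lower. The interferons themselves were near absent from both pools, as 0 of 21 passed the filter and 19 had 0 reads in both, which at 3 reads per library is a limit on detection and not evidence of absence. *Ifng* had 2 reads in the S1a/Ctrl pool and 0 in the S1a/ETP pool, and *Ifnk* had 0 and 1. All 6 receptor subunits passed, none 2-fold different, with a median of 0.05. *Ifnar1* was at 8.89 and 9.03 FPKM, at 0.02 [-0.15, 0.19], and its partner *Ifnar2* at 12.2 and 9.93 FPKM, at -0.30 [-0.47, -0.13]. The interferon-gamma receptor chains *Ifngr1* and *Ifngr2* were at 9.18 and 10.8 FPKM and at 7.38 and 7.76 FPKM, with ratios of 0.23 [0.02, 0.45] and 0.07 [-0.13, 0.27]. Of the type III receptor, *Ifnlr1* was at 0.261 and 0.247 FPKM and *Il10rb* at 2.44 and 2.88 FPKM. Of the first 4, the intervals of *Ifnar2* and *Ifngr1* left 0, on opposite sides.

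Of the 10 kinases, STATs and inhibitors, none was 2-fold different and the median was 0.14. *Jak1* was at 15.5 and 15.9 FPKM, *Jak2* at 3.54 and 3.47 and *Tyk2* at 5.03 and 4.91, with ratios of 0.04, -0.03 and -0.03, and the interval of each spanned 0. *Stat3*, the factor of the interleukin-6 family, had the largest ratio, 0.64 [0.53, 0.74], from 11.3 and 17.6 FPKM, and *Pias1* the smallest, -0.10 [-0.39, 0.18]. The interval of *Stat3* did not overlap those of the Jak kinases. Of 13 sensors and adaptors, 12 passed and none was 2-fold different, with a median of 0.05. *Mavs* and *Irf3* were the most abundant, at 33.1 and 33.7 FPKM and at 24.3 and 20.7 FPKM. *Tmem173*, or STING, had the largest ratio, 0.84 [0.31, 1.37], from 46 and 65 reads, and *Tlr7* the smallest, -0.26 [-0.95, 0.44].

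Of 28 further type I response genes, 27 passed, none was 2-fold different and the median was 0.00. *Ifitm3*, which blocks viral fusion in endosomes, was the most abundant at 378 and 377 FPKM, at 0.00 [-0.07, 0.06], followed by *Ly6e* at 235 and 334 FPKM, at 0.50 [0.46, 0.54]. *Oas1b* had the largest ratio of them, 0.67 [-0.03, 1.37], and *Phf11d* the smallest, -0.82 [-1.43, -0.22]. Of 21 further interferon-gamma genes, 19 were matched, 17 passed, 2 were 2-fold higher and none lower, with a median of 0.15. *Ubd*, a ubiquitin-like modifier also induced by tumor necrosis factor and named by the study on these libraries, was at 9.10 FPKM in the S1a/Ctrl pool and 47.4 in the S1a/ETP pool from 163 and 642 reads, at 2.37 [2.12, 2.62]. *Gbp4*, a guanylate-binding protein like the members, had 25 and 52 reads, at 1.20 [0.62, 1.77]. Its row lies almost wholly within those of *Gbp8* and *Gbp9* on the same strand, so its reads are uncertain. *Ubd* and *Gbp4*, 2 of 17, compare with a background of 6.42%. *Gbp11* had the smallest ratio of the list, -0.66 [-0.92, -0.40], and *Psmb10*, an immunoproteasome subunit, was at 26.8 and 20.2 FPKM, at -0.40 [-0.59, -0.22]. None of 3 further Slfn genes passed the filter.

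**Figure D5:**
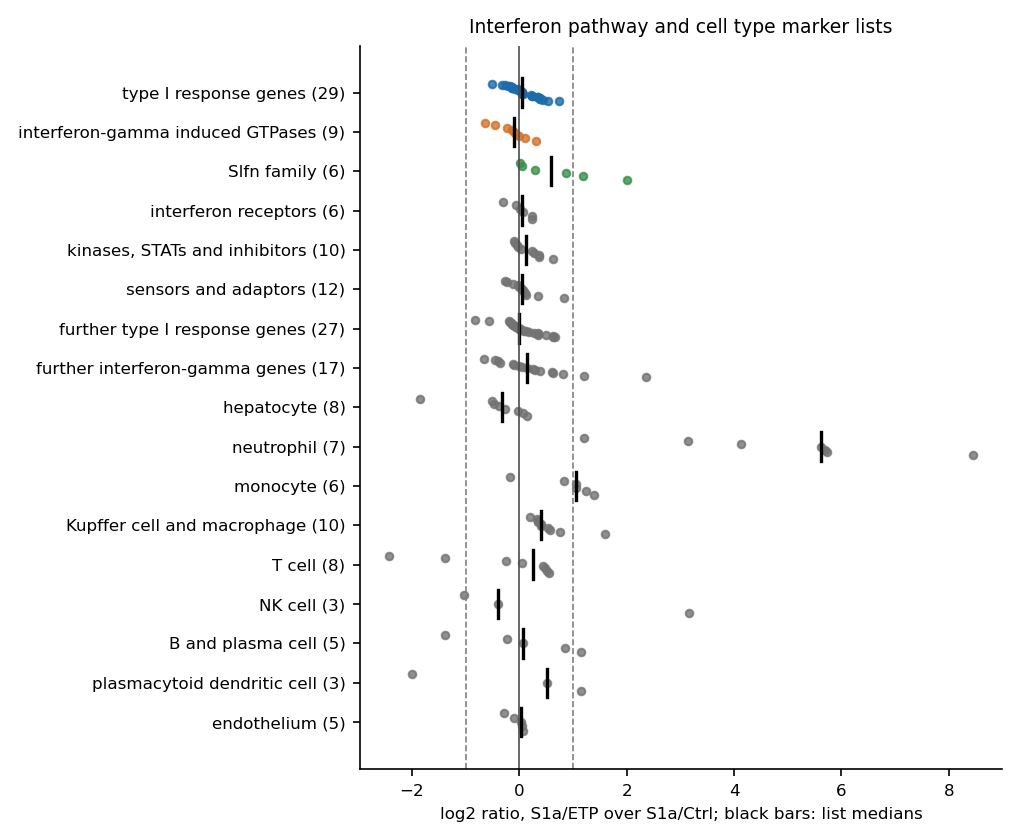
Log2 ratio of S1a/ETP over S1a/Ctrl for each gene above the filter, by list (number of genes in parentheses), with black bars at list medians and dashed lines at 2-fold. The interferon lists have medians between -0.10 and 0.15, the Slfn family 0.58, and neutrophil markers 5.63. Skeletal muscle markers lie left of the axis and are not drawn.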

How the data were processed

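Processing began from 1 table of FPKM values that the authors deposited, with gene IDs, symbols, coordinates and lengths. The submitters' processing notes list the build mm10, GATK 4.1, STAR-Fusion 1.5.0, StringTie 1.3.3b, HTSeq 0.6.1 and STAR among their tools, with no role given. The strand setting, the read filters and the annotation release were not given in the sources used here. Reads of overlapping genes and close copies are therefore uncertain. Multiplied by gene length and depth, 100% of the values were whole reads within 0.01, and these reads gave the counting intervals. The study used a p-value and a 2-fold size, and only the size was used here, because 1 library per group leaves no spread to test against.

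Members were matched by symbol, and 44 of 45 had the same symbol for their ID in the reference. The members, the 7 lists of 102 other pathway genes and the 10 lists of 67 markers were chosen with earlier results of these data known. Another symbol was used in the table for 4 of these genes, found by ID, and 2 were left unmatched. Of the unmatched, *Gbp2b* has the ID of the row named *Gbp5*, which was counted once, as *Gbp5*. Named were all members, and of each pathway list the largest and smallest ratio, the 2 most abundant genes and every interferon with reads, receptor, Jak and STAT, except 1 gene that is not reported here. Marker lists are given as sums with their defining markers. Any other gene was chosen after its values were seen, among them *Ifit3b*, *Gbp4*, *Gbp5*, *Gm15564* and *Slfn10-ps*, which share sequence, position or a call with a member or list. Shared 100-base stretches were counted over GENCODE M21 transcripts, promoters came from RefSeq, GRCm38.p6, and upstream windows were aligned with Biopython 1.88. Steps were tested on simulated data. Alternatives were pseudocounts of 1 and 0.01 FPKM, other filters, sizes and scalings. Scripts ran on Python 3.11.15 with scipy 1.17.1, pandas 2.3.3, numpy 2.4.6 and matplotlib 3.10.9.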

Additional observations from a re-analysis of the deposited data

How the results depend on the processing

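Of 91 list and all-gene values recomputed under other settings, 79 stayed within their limits, 12 moved and 0 reversed, and of 264 values of single genes 259 stayed and 5 moved. With a pseudocount of 1 FPKM, 0 Slfn genes and 128 of all genes were 2-fold higher and 169 lower, *Slfn9* was at 0.998 and *Slfn4* at 0.26. With 0.01 FPKM, 1 type I response gene (*Oas3*) and 3 Slfn genes were 2-fold higher, with *Slfn4* at 1.93 and *Slfn1* at 1.14, and with no pseudocount *Slfn4* was at 2.08. A filter of 1 FPKM left 1 Slfn gene higher, *Slfn9*, which reached it only through S1a/ETP, and 241 of all genes higher and 203 lower. Protein-coding genes alone gave 630 and 469. At a 4-fold size 1 Slfn gene was higher, and at 1.5-fold 1 type I response gene was higher and 1 GTPase lower. Without *Slfn9* 1 Slfn gene was 2-fold higher. With the reads of *Slfn3* and *Slfn4* summed and scaled to depth with no pseudocount, the log2 ratio was 2.17. Both settings were added after seeing the data. The pseudocount thus decides whether the low Slfn genes pass 2-fold. Rescaling shifted log2 ratios by -0.03 (median set to 0), 0.07 (TPM) or 0.03 (without the 100 most abundant genes), somewhat less for low genes where the pseudocount was added, as for *Slfn4* from 1.19 to 1.24 with TPM. This took *Bst2* to 0.04 with TPM and changed the sign of 6 of 44 genes (*Mx2*, *Bst2*, *Stat2*, *Gbp6*, *Ifi47* and *Slfn5*), all near 0. No replicate could be left out. No paired analysis was possible because each group had 1 library.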

Other observations

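Other genes of antigen processing that interferon-gamma induces were read after the lists, and those named here were chosen after their values were seen. *Psmb8* and *Psmb9*, the other two inducible subunits of the immunoproteasome, were at 12.3 and 8.72 FPKM in the S1a/Ctrl pool and 13.6 and 9.06 FPKM in the S1a/ETP pool, with log2 ratios of 0.15 [-0.05, 0.34] and 0.05 [-0.14, 0.25], whereas *Psmb10* was lower in S1a/ETP. *Tap1*, which carries peptides to the endoplasmic reticulum, was at 5.26 and 6.33 FPKM, at 0.26 [0.06, 0.47]. The T cell chemokines differed among themselves, with *Cxcl10* at 1.52 and 2.77 FPKM from 32 and 44 reads, at 0.82 [0.17, 1.49], and *Cxcl9* at 5.35 FPKM in both pools from 299 and 226 reads, at 0.00 [-0.25, 0.25].

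*Lgals3bp*, a secreted galectin-3 partner, was at 27.1 and 42.0 FPKM, at 0.63 [0.52, 0.74], and *Apol9b*, an apolipoprotein L of the mouse, was at 44.7 and 30.4 FPKM, at -0.56 [-0.69, -0.42], so well-counted genes of the further type I list stood on both sides of 0. *Socs3* and *Ptpn2*, inhibitors of Jak and STAT signaling, were at 2.55 and 3.32 FPKM and at 3.60 and 4.67 FPKM, with ratios of 0.37 [0.01, 0.73] and 0.36 [0.07, 0.66].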
